A study of Mus musculus with 6 samples.

Results

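The genes described here are 9 that let a phagocyte bind antibody-coated or fungal particles: the receptors for the constant (Fc) part of IgG Fcgr1, Fcgr2b, Fcgr3 and Fcgr4, the neonatal Fc receptor Fcgrt, the signalling chains Fcer1g and Tyrobp, and the C-type lectins Clec7a (Dectin-1) and Clec12a. They were chosen by name for their function, with earlier results of these data known. They are 9 of the 32903 gene symbols to which transcripts of the deposited table could be matched. The cells were MuTuDC1940, an immortalised line of mouse splenic dendritic cells that resembles the cross-presenting type 1 subset (cDC1). Treated cells received the synthetic viral RNA mimic poly(I:C) at 5 µg/ml and are compared after 18 hours with untreated cells of the same line; no other agent or allele is named in the labels. The series has 3 samples per group, and 2 libraries per group are used here, headed PolyIC01 and PolyIC02 against NT01 and NT02. All values come from 1 line. Whether replicate libraries came from separate cultures is not stated, so p-values measure the spread between libraries alone, which may be technical. In such bulk RNA, fewer cells carrying a transcript and less of it per cell cannot be told apart.

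Receptors for IgG come in opposing pairs. Activating receptors (Fcgr1, Fcgr3 and Fcgr4) carry no signalling motif of their own and depend on the common gamma chain, encoded by Fcer1g, whose ITAM motif recruits the kinase Syk. The inhibitory receptor Fcgr2b carries an ITIM motif that recruits the lipid phosphatase SHIP1, encoded by Inpp5d. In dendritic cells the balance between both kinds sets how immune complexes affect maturation and antigen presentation. Fcgrt, which pairs with beta-2-microglobulin, binds IgG in acidic endosomes, rescues it from lysosomes and steers immune complexes to antigen presentation. Clec7a binds beta-glucan of fungal walls and signals through a single ITAM-like motif, Syk and Card9, while Clec12a carries an ITIM and is an inhibitory receptor. Tyrobp encodes DAP12, an ITAM chain shared by many other receptors of myeloid and NK cells.

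Values are TPM (transcripts per 1000000, an abundance per length), added over the transcripts of a gene. TPM keeps no record of depth, so no counting interval is given; 11584 and 11504 genes reached 1 TPM in PolyIC01 and PolyIC02, against 11346 and 11207 in NT01 and NT02. The identity of the cells was checked with 10 cDC1 markers: Irf8, Xcr1, Clec9a, Batf3 and Tlr3 were all above 100 TPM in every library, and Itgae was under 1 TPM. Their summed level, most of it Irf8, was 3743 to 3828 TPM with poly(I:C) and 3721 to 3792 TPM without. Within it 5 markers rose and 4 fell: Xcr1 rose (log2 fold change 0.78), while Tlr3 (-0.81), Flt3 (-0.74), Itgax (-0.71) and Batf3 (-0.30) fell. Fc receptors are also used to tell macrophages from dendritic cells, so 12 macrophage and monocyte markers were read beside them. Their summed level was 565 to 583 TPM with poly(I:C) and 545 to 550 TPM without. Of the 8 that could be tested, 4 rose and 2 fell: C1qa rose (2.18) and Lyz2 fell (-1.07), while the defining receptor gene Csf1r was listed at 0 in both poly(I:C) libraries and was at 0.272 and 0.469 TPM in NT01 and NT02, and Mertk was under 0.05 TPM in all 4. None of 7 neutrophil markers could be tested, and S100a8, S100a9 and Ly6g were at 0. Of 7 mast cell and basophil markers, Cpa3 and Mcpt8 were at 0 in all libraries, Gata2 fell (-0.29) and Hdc rose, at 3.03 and 3.21 TPM in PolyIC01 and PolyIC02, against 0.396 and 0.388 TPM in NT01 and NT02 (1.56, adjusted p = 5.39e-05). Of 6 plasmacytoid dendritic cell markers, Ly6d was at 0, Tcf4 did not pass, and Pacsin1 (1.87) and Spib (1.37) rose to at most 4.02 TPM. Hdc, Pacsin1 and Spib were tested only through the poly(I:C) libraries. The part of these markers in the results below was not tested.

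Of the 9 genes, 6 rose with poly(I:C), 2 fell and Tyrobp missed the threshold. Clec7a, Fcgr4 and Fcgr1 rose by at least 2-fold; Fcer1g, Clec12a and Fcgr3 rose by less; and Fcgr2b and Fcgrt fell. The test was limma on log2(TPM + 1) over the 12520 genes that averaged 0.5 TPM or more, with an adjusted p (Benjamini-Hochberg over all of them) under 0.05. At that threshold 28.4% of all tested genes rose and 32.4% fell, 60.8% in all, so a call by itself says little in these data. A rise of at least 2-fold on that scale was less common, with 5.69% of all tested genes against 3 of these 9 (Fcgr1 among them was tested only through the poly(I:C) libraries), and a fall of at least 2-fold (2.76% of all) was seen in none of the 9. The median log2 fold change of the 9 genes was 0.70, beside -0.02 over all tested genes. Because the 9 genes were chosen with earlier results of these data known, these comparisons describe the list and test nothing. In each of the 9 genes the libraries of the groups did not overlap, which was also so for 81.3% of all tested genes. With 2 libraries a group, the smallest two-sided p of an exact permutation test is 0.333, so none was run.

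**Figure D1:**
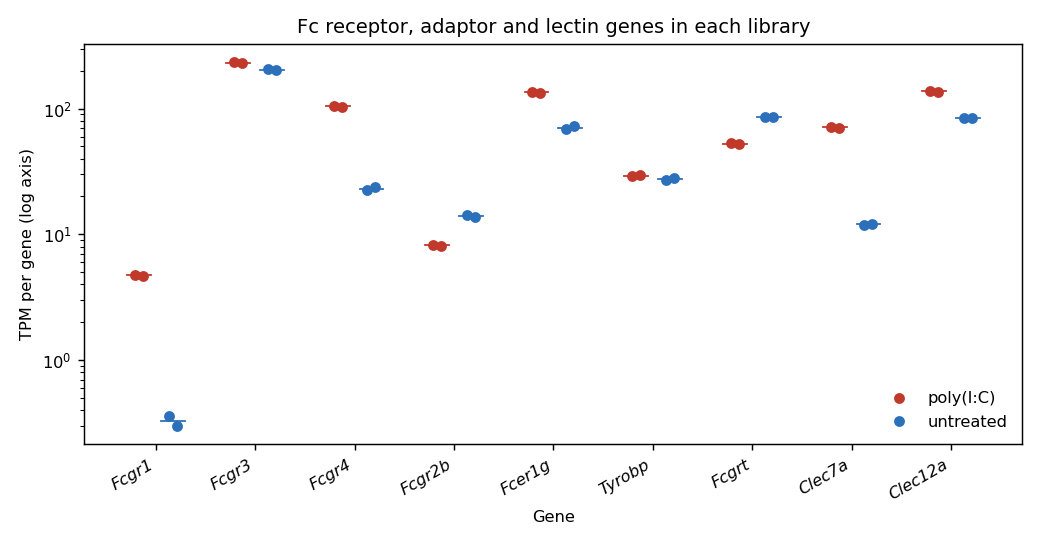
TPM of each gene in each library on a log axis, with poly(I:C) libraries (red) left of untreated libraries (blue); points are single libraries and bars the mean of 2. Fcgr1, Fcgr4 and Clec7a lie well apart between the groups, Tyrobp lies between 27.2 and 29.4 TPM in all 4 libraries, and Fcgr2b and Fcgrt are lower with poly(I:C).

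Among the activating receptors, Fcgr3 was the most abundant. Its product, FcγRIII (CD16), is a low-affinity receptor for IgG complexes. Fcgr3 had 234 and 231 TPM in PolyIC01 and PolyIC02, against 205 and 204 TPM in NT01 and NT02. Both poly(I:C) libraries lay above both untreated ones, but the distance was small: 232 ± 2.33 against 205 ± 0.801 TPM (SD, n = 2 libraries per group here and below), 1.14-fold (log2 fold change 0.18, SE 0.025, adjusted p = 0.00154). Fcgr3 was the highest of the 9 genes in both groups, above 94.8% of all tested genes with poly(I:C) and 94.2% without. Its RefSeq position is chromosome 1, 171051169 to 171065915 (GRCm38.p6, as for all genes below).

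Fcgr4 encodes FcγRIV (CD16-2), a mouse receptor of intermediate affinity. Fcgr4 had 106 and 103 TPM in PolyIC01 and PolyIC02, against 22.5 and 23.8 TPM in NT01 and NT02. The groups were far apart relative to the spread within them, at 105 ± 1.67 and 23.1 ± 0.886 TPM, 4.52-fold (log2 fold change 2.13, SE 0.043, adjusted p = 2.07e-06). It stood above 87.4% of tested genes with poly(I:C) and above 56.7% without. It lies on chromosome 1 at 171018926 to 171029761.

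Fcgr1 encodes FcγRI (CD64), the high-affinity receptor that binds single IgG molecules and is best known from macrophages and monocyte-derived cells. Fcgr1 had 4.76 and 4.66 TPM in PolyIC01 and PolyIC02, against 0.356 and 0.299 TPM in NT01 and NT02. All untreated values were under 0.5 TPM, so the gene reached the test only through the poly(I:C) libraries and had to differ to be tested. The ratio of mean TPM was 14.4 and the log2 fold change 2.11 (SE 0.088, adjusted p = 1.87e-05), which became 3.50 with a pseudocount of 0.1 in place of 1. Although its ratio was the largest of the 9, Fcgr1 was the lowest of them in both groups, and with poly(I:C) it stood above only 25.2% of tested genes. Fcgr1 lies on chromosome 3 at 96282909 to 96293969.

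The promoters of Fcgr1, Fcgr4 and Clec7a are shown because these 3 genes rose the most. Each line gives the 250 bases before the start of the gene in RefSeq (GRCm38.p6), 5′ to 3′ on the strand of the gene, and capitals mark matches to 3 motifs searched on both strands: the gamma interferon activated site TTCNNNGAA, the core of the interferon-stimulated response element, which is GAAA and GAAA with 2 free bases between them, and the composite site of ETS and IRF factors, which is GGAA and GAAA with 2 free bases between them.
Fcgr1, chr3:96293970-96294219, minus strand: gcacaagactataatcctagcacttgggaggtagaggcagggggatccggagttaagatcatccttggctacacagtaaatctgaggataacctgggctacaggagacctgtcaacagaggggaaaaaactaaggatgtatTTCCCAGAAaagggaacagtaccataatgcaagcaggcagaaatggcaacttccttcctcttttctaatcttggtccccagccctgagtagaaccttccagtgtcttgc
Fcgr4, chr1:171018676-171018925, plus strand: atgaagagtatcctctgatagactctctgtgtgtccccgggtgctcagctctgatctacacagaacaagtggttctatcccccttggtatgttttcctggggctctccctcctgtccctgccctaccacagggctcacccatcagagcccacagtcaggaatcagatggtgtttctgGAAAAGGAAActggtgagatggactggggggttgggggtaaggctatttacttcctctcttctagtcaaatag
Clec7a, chr6:129472786-129473035, minus strand: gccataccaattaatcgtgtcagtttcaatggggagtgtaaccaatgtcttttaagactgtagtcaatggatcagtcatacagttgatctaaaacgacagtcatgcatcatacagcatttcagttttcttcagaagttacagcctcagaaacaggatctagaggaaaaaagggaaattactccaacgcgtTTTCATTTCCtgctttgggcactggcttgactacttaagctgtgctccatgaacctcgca
Fcgr1 held a gamma interferon activated site that began 109 bases before the start, Fcgr4 a response element core 73 bases before it, and Clec7a a reverse ETS and IRF composite 60 bases before it. RefSeq gives Clec7a another, downstream start, from which the same match lies 66 bases away. Among 32851 such windows of the mouse genome these motifs were present in 7.02%, 2.98% and 2.30%, in the same order. Windows could be read for 8 of the 9 genes, all but Tyrobp. Fcgr2b, which fell, also held a composite site (TTTCACTTCC, 35 bases before its RefSeq start), and Fcgr3, Fcer1g, Fcgrt and Clec12a held no match in their windows. The windows of Fcgr3 (chr1:171059404-171059653 and chr1:171059395-171059644) and Clec12a (chr6:129349994-129350243) lie inside the positions given for these genes. Sequence before the outer start of either gene was therefore not read. The motifs were chosen after the values were known, and a match describes letters, not binding.

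Fcgr2b, the inhibitory receptor, moved the other way from the activating ones. Fcgr2b had 8.29 and 8.07 TPM in PolyIC01 and PolyIC02, against 14.3 and 13.6 TPM in NT01 and NT02. Both poly(I:C) libraries were lower, at 8.18 ± 0.155 against 13.9 ± 0.461 TPM, a ratio of 0.587 (log2 fold change -0.70, SE 0.062, adjusted p = 0.000282). It lies on chromosome 1 at 170960558 to 170976071. Fcgr2b and Fcgr3 are near copies in the part that encodes their extracellular domains: 17.7% of the 31-base words of the main Fcgr3 transcript occur in Fcgr2b, and 16.3% of those of the shorter Fcgr2b transcript occur in Fcgr3, so some reads cannot be placed. Fcgr4 and Fcgr1 shared no such word with Fcgr2b or Fcgr3. When Fcgr2b and Fcgr3 were added up, their sum rose (log2 fold change 0.14, adjusted p = 0.00475), as it is made up mostly of Fcgr3. A GENCODE antisense gene, Gm38204, overlaps 2.68% of the exonic bases of Fcgr2b, and no source used here says if the quantification took strand into account.

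The lower level of Fcgr2b stood mainly in its longer transcript. Mouse Fcgr2b is spliced into a form with an extra exon for the cytoplasmic tail, typical of B cells and poorly endocytosed, and a form without it, typical of myeloid cells and taken up through coated pits. In the annotation the exon-containing transcript NM_001077189 has a coding length of 1020 bases and NM_010187 one of 879 bases, and they differ by exon 6 of 141 bases (chromosome 1, 170963325 to 170963465, minus strand), which is shown because it tells them apart, in capitals with 20 bases of the joined exons in lower case:
Fcgr2b exon 6, chr1:170963325-170963465: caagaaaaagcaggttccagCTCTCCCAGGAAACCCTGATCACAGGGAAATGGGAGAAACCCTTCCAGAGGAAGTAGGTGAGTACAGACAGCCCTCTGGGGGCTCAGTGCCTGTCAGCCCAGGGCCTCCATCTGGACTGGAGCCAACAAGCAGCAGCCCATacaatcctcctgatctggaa
The transcript with this exon had 3.77 and 2.49 TPM in PolyIC01 and PolyIC02, against 9.07 and 7.97 TPM in NT01 and NT02, a ratio of 0.367. The transcript without it had 4.52 and 5.58 TPM in PolyIC01 and PolyIC02, against 5.19 and 5.64 TPM in NT01 and NT02, and these ranges overlap. The exon-containing form was 45.4% and 30.9% of the gene's TPM in the poly(I:C) libraries and 63.6% and 58.5% in the untreated ones. The annotated forms also differ at their 3′ end, the division between them is an estimate of the quantification software, and it was not tested.

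**Figure D2:**
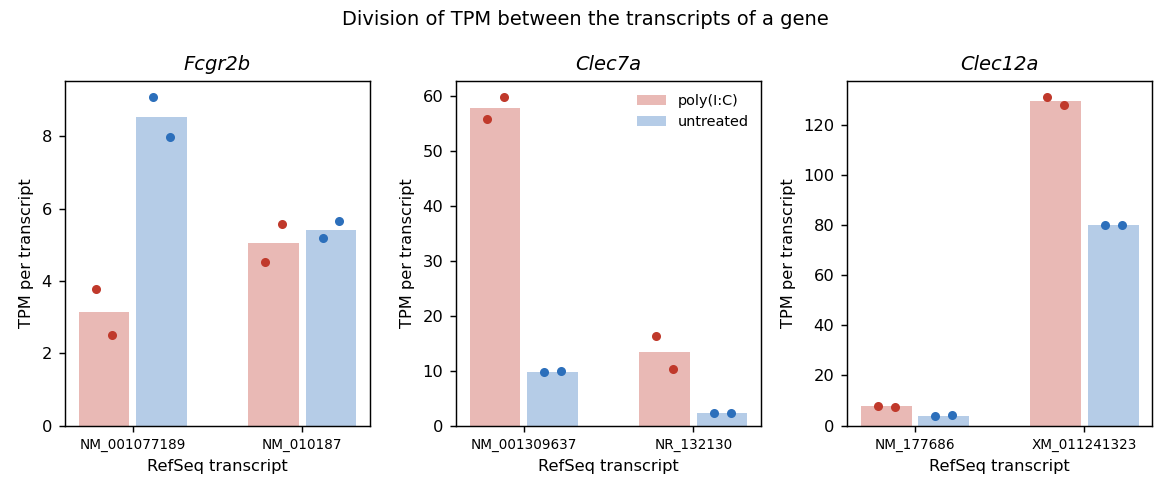
TPM of each RefSeq transcript of Fcgr2b, Clec7a and Clec12a, poly(I:C) (red) left of untreated (blue); bars are means of 2 libraries and points single libraries. For Fcgr2b the exon-containing NM_001077189 is lower with poly(I:C) and NM_010187 overlaps between the groups, while both Clec7a transcripts and both Clec12a transcripts are higher with poly(I:C).

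Because TPM is an abundance per length, levels of these receptors can be set beside each other within a library. The summed level of Fcgr1, Fcgr3 and Fcgr4 was 345 and 339 TPM in PolyIC01 and PolyIC02, against 228 TPM in both untreated libraries. Set over Fcgr2b, that sum was 41.6 and 42.0 times its level in the poly(I:C) libraries and 16.0 and 16.8 times in the untreated ones. Fcgr4 made up 30.7% and 30.5% of the activating sum in the poly(I:C) libraries and 9.88% and 10.4% in the untreated ones, Fcgr3 67.9% and 68.1% against 90.0% and 89.4%, and Fcgr1 at most 1.38%. The activating receptors were thus mostly Fcgr3 in both groups, with a larger part for Fcgr4 after poly(I:C). These ratios are descriptions of RNA in 2 libraries per group and say nothing of protein at the surface.

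Of the signalling chains, Fcer1g rose and Tyrobp did not pass the test. Fcer1g had 137 and 132 TPM in PolyIC01 and PolyIC02, against 69.1 and 72.1 TPM in NT01 and NT02. This was 134 ± 3.07 against 70.6 ± 2.13 TPM, 1.90-fold (log2 fold change 0.92, SE 0.036, adjusted p = 1.57e-05). The gamma chain lies in the same stretch of chromosome 1 as its partners Fcgr3 and Fcgr4, at 171229572 to 171234349. The summed activating receptors were 2.52 and 2.56 times the level of Fcer1g with poly(I:C) and 3.30 and 3.16 times without.

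Tyrobp had 29.1 and 29.4 TPM in PolyIC01 and PolyIC02, against 27.2 and 28.0 TPM in NT01 and NT02. The poly(I:C) values were both slightly higher, but the log2 fold change of 0.08 (SE 0.044, 95% interval -0.03 to 0.19, adjusted p = 0.179) did not pass. The upper bound of the interval lies well under a 2-fold change, while a small rise lies within it. Fcer1g was 4.70 and 4.50 times as abundant as Tyrobp in the poly(I:C) libraries and 2.54 and 2.57 times in the untreated ones. Tyrobp lies on chromosome 7 at 30413782 to 30417582.

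**Figure D3:**
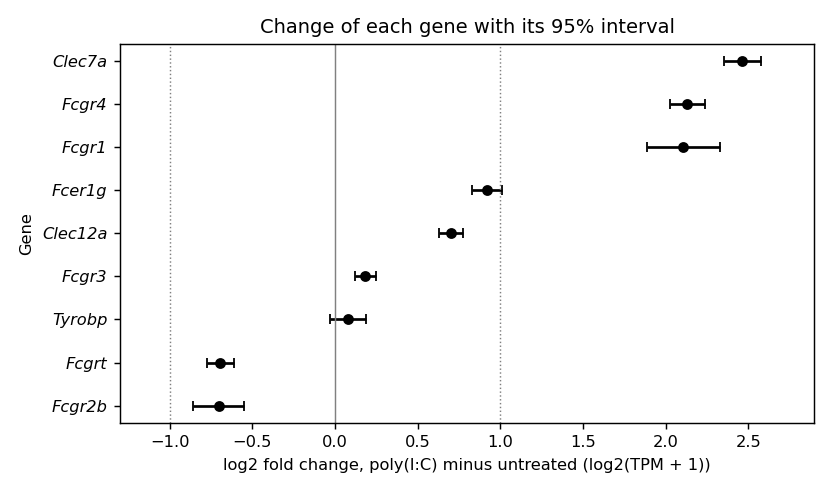
Log2 fold change of each gene, poly(I:C) minus untreated, on the log2(TPM + 1) scale, with the 95% interval of the limma fit; dotted lines mark 2-fold. Clec7a (2.46), Fcgr4 (2.13) and Fcgr1 (2.11) lie past 2-fold, the interval of Tyrobp spans 0, and Fcgrt (-0.69) and Fcgr2b (-0.70) lie below 0.

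Fcgrt, the neonatal Fc receptor, fell. Fcgrt had 53.1 and 52.1 TPM in PolyIC01 and PolyIC02, against 85.8 and 85.7 TPM in NT01 and NT02. The groups were well apart, at 52.6 ± 0.748 and 85.7 ± 0.053 TPM, a ratio of 0.614 (log2 fold change -0.69, SE 0.032, adjusted p = 2.64e-05). Its obligate partner B2m, shared with MHC class I, rose and was at 4478 and 4542 TPM in PolyIC01 and PolyIC02, against 2447 and 2452 TPM in NT01 and NT02 (log2 fold change 0.88, adjusted p = 2.62e-06). B2m was 84.3 and 87.2 times as abundant as Fcgrt with poly(I:C) and 28.5 and 28.6 times without. Fcgrt was second of the 9 genes in untreated cells, just above Clec12a, and sixth with poly(I:C). It lies on chromosome 7 at 45092993 to 45103822.

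Clec7a, the beta-glucan receptor Dectin-1, had the largest change of the 9 genes on the log2(TPM + 1) scale. With a pseudocount of 0.5 or 0.1 Fcgr1 came first (2.66 and 3.50, beside 2.51 and 2.55 for Clec7a), as it did by ratio of mean TPM. Clec7a had 72.0 and 70.0 TPM in PolyIC01 and PolyIC02, against 11.9 and 12.2 TPM in NT01 and NT02. It stood above 81.6% of tested genes with poly(I:C) and above 41.7% without. The ratio of mean TPM was 5.89 and the log2 fold change 2.46 (SE 0.044, adjusted p = 1.51e-06), rank 116 among the 3556 genes that rose. It lies on chromosome 6 at 129461591 to 129472785.

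Dectin-1 occurs in a long form and a form that lacks the stalk between membrane and lectin domain. The transcript without the stalk exon, NM_001309637, had 55.7 and 59.7 TPM in PolyIC01 and PolyIC02, against 9.68 and 9.90 TPM in NT01 and NT02. A transcript with the exon, NR_132130, which RefSeq lists as non-coding, had 16.3 and 10.3 TPM in PolyIC01 and PolyIC02, against 2.26 TPM in both untreated libraries. The form without the exon was 77.4% and 85.3% of the gene's TPM with poly(I:C) and 81.1% and 81.4% without, so the forms were present in like parts in both groups. A coding transcript with the exon, NM_020008, was listed at 0 in 3 of the libraries and at 1.6e-07 TPM in NT01. GENCODE pairs it with the same gene model as NR_132130, a model it classes as a polymorphic pseudogene. That model is given a coding length of 732 bases, against 597 bases for the one paired with NM_001309637. The stalk exon is exon 3, of 135 bases, and is shown in capitals with 20 bases of its neighbours because it separates the forms that were detected:
Clec7a exon 3, chr6:129468869-129469003, minus strand: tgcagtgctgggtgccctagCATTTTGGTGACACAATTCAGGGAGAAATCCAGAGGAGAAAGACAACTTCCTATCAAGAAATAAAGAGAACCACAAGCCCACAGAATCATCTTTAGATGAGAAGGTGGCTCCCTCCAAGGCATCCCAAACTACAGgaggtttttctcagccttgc

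Clec12a, the inhibitory lectin, rose less than Clec7a. Clec12a had 139 and 135 TPM in PolyIC01 and PolyIC02, against 83.6 and 83.8 TPM in NT01 and NT02. Both poly(I:C) libraries were higher, by a ratio of 1.64 (log2 fold change 0.70, SE 0.029, adjusted p = 1.80e-05). Of its TPM, 94.3% and 94.5% in the poly(I:C) libraries and 95.6% and 95.1% in the untreated ones stood in a predicted transcript, XM_011241323. The curated transcript NM_177686 had 7.84 and 7.499 TPM in PolyIC01 and PolyIC02, against 3.71 and 4.07 TPM in NT01 and NT02. Clec12a was 1.93 and 1.94 times as abundant as Clec7a with poly(I:C), against 6.997 and 6.90 times without. It lies on chromosome 6 at 129349783 to 129365303.

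The order of the 9 genes by TPM therefore differed between the groups. With poly(I:C) it ran Fcgr3, Clec12a, Fcer1g, Fcgr4, Clec7a, Fcgrt, Tyrobp, Fcgr2b and Fcgr1, and the libraries of Clec12a (139 and 135 TPM) and Fcer1g (137 and 132 TPM) overlapped, so their order is not settled. In untreated cells it ran Fcgr3, Fcgrt, Clec12a, Fcer1g, Tyrobp, Fcgr4, Fcgr2b, Clec7a and Fcgr1, with no overlap between neighbours. Fcgr3 was first and Fcgr1 last in both.

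Neighbouring genes differed in direction. Fcgr2b, Fcgr4, Fcgr3 and Fcer1g lie within 1 stretch of chromosome 1, and in a window of 328 kb from Fcrlb to Fcer1g 12 genes could be tested, with 7 higher calls, 2 lower and 3 that missed the threshold. Fcgr4 stood out between its neighbours Fcgr2b, which fell, and Fcgr3, which changed little. Sdhc, a respiratory chain gene in the window, had 207 TPM on average with poly(I:C) and 212 TPM without and did not pass. In a window of 418 kb on chromosome 6 from Clec2d to Klrd1, around Clec12a and Clec7a, 13 genes could be tested as well, with 9 higher calls, 1 lower and 3 that missed the threshold. Beside the counts of both windows, 28.4% of all tested genes rose and 32.4% fell. The counts are not separate from the genes described here. Among the higher calls are Fcgr4, Fcgr3 and Fcer1g on chromosome 1 and Clec7a and Clec12a on chromosome 6. Fcgr2b is among the lower calls. Fcrlb and Clec12b, also among the higher calls, were tested only through the poly(I:C) libraries. Clec9a, the dead-cell receptor between both lectins, had 237 and 225 TPM in PolyIC01 and PolyIC02, against 209 and 186 TPM in NT01 and NT02 (log2 fold change 0.23), and Clec1a did not pass (-0.06). The activation marker Cd69 (3.04) and Clec2d (2.55) changed by more than Clec7a did. The windows were chosen after the values were known.

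Other Fc receptor and Fc receptor-like genes moved in both directions. Of 12 listed, 6 could be tested (median log2 fold change 0.31), and 3 rose, 2 fell and 1 missed the threshold. For this and each list below, the shares over all tested genes were 28.4% that rose and 32.4% that fell. Trim21, a cytosolic antibody receptor and ubiquitin ligase, had 27.8 and 25.1 TPM in PolyIC01 and PolyIC02, against 19.0 and 17.9 TPM in NT01 and NT02 (0.49, adjusted p = 0.00162). Pigr, which carries polymeric immunoglobulin across epithelia, was low but rose (0.61), as did Fcrlb (0.98), which reached the test only through the poly(I:C) libraries and came to 2.34 with a pseudocount of 0.1. Fcrla, the most abundant of the 12, had 163 and 168 TPM in PolyIC01 and PolyIC02, against 184 and 199 TPM in NT01 and NT02. It fell (-0.20, adjusted p = 0.00958). Fcrl1, known as a B cell gene, also fell (-0.33), a call that was lost with curated transcripts only (adjusted p = 0.0773). Fcer1a and Ms4a2, the ligand-binding and beta chains of the high-affinity IgE receptor, were under 0.1 TPM in every library.

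Most other receptors that use Fcer1g or Tyrobp were too low to test. Of 26 listed genes, 23 were in the table and 7 reached the test (median 0.06), with 2 higher calls, 1 lower and 4 that missed the threshold. Among the 7 is Hcst, which did not pass (-0.29) and encodes a signalling chain, not a receptor. Klrk1, which encodes NKG2D, had 27.5 and 26.2 TPM in PolyIC01 and PolyIC02, against 15.6 and 13.8 TPM in NT01 and NT02 (0.83, adjusted p = 0.000266). Pilrb1, an activating paired receptor, fell to 35.5 and 37.5 TPM in PolyIC01 and PolyIC02, against 78.4 and 69.3 TPM in NT01 and NT02 (-0.99). Clec4n (Dectin-2) was under 1 TPM in every library, reached the test only through the poly(I:C) libraries and rose (0.44; 1.11 with a pseudocount of 0.1). Mincle (Clec4e) was at 0.122 and 0.174 TPM in PolyIC01 and PolyIC02 and listed at 0 in both untreated libraries. Dectin-1 was the only one of the fungal receptor genes Clec7a, Clec4n, Clec4d and Clec4e above 1 TPM in any library.

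Among 22 other C-type lectin genes, 10 could be tested, of which 5 rose, 3 fell and 2 did not pass (median 0.16). Clec2d, a ligand of NK cell receptors, had 129 TPM in both PolyIC01 and PolyIC02, against 21.1 and 21.5 TPM in NT01 and NT02 (2.55, adjusted p = 6.74e-07). Clec2i rose as well (1.84). Clec12b, 1 of the 5, was under 1 TPM in every library and tested only through the poly(I:C) ones. Clec4a2, the inhibitory receptor DCIR, had 10.8 and 10.001 TPM in PolyIC01 and PolyIC02, against 30.7 and 32.7 TPM in NT01 and NT02 (-1.52), and Cd302 also fell (-1.48). The inhibitory lectins Clec4a2 and Clec12a therefore changed in opposite directions. The macrophage lectin Mrc1 was near 0.01 TPM in all libraries, and Cd209a was at 0.

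Among signalling genes downstream of ITAM receptors more rose than fell, while the kinase and the adaptor that Dectin-1 depends on did not rise. Of 31 listed genes 30 were tested; 18 rose, 5 fell and 7 missed the threshold (median log2 fold change 0.25). Src and Blnk, 2 of the 18, were tested only through the poly(I:C) libraries. The adaptor gene Sh3bp2 had 70.7 and 67.4 TPM in PolyIC01 and PolyIC02, against 20.5 and 19.7 TPM in NT01 and NT02 (1.73, adjusted p = 4.62e-06), and the kinase genes Tec (1.54) and Fgr (1.25) also rose. Syk had 33.3 and 32.7 TPM in PolyIC01 and PolyIC02, against 40.9 and 36.7 TPM in NT01 and NT02 (-0.22, adjusted p = 0.0224); this call was lost without NT01, where the fold change was -0.15 (adjusted p = 0.0597), without PolyIC01 (0.0566), without PolyIC02 (0.0764) and with no filter on low values (0.0562). Card9 had 26.5 and 27.8 TPM in PolyIC01 and PolyIC02, against 29.7 and 27.2 TPM in NT01 and NT02, values that overlap (-0.06, adjusted p = 0.396). Pik3cg, a phosphoinositide kinase gene, had the deepest fall of the list (-1.25).

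Inhibitory receptors, and the phosphatases and adaptors listed with them, moved unevenly. Of 16 receptors listed as inhibitory 11 were tested, with 7 higher calls, 2 lower and 2 that missed the threshold (median 1.01); Siglec1 and Cd200r1 in this list carry no ITIM, and Lilra5, which was not tested, is an activating receptor. Lilrb4a, an ITIM receptor, had 791 and 715 TPM in PolyIC01 and PolyIC02, against 145 and 119 TPM in NT01 and NT02 (2.51, adjusted p = 0.000188), far more than Fcgr2b in either group. Cd22 rose (1.41). Siglec1 and Sirpa, under 0.5 TPM in both untreated libraries and tested only through the poly(I:C) ones, also rose (3.76 and 3.25 with a pseudocount of 0.1). Of 16 phosphatases and adaptors, all tested, 5 rose, 5 fell and 6 did not pass (median 0.07). Not all of these are inhibitors alone, with Ptprj and Ptprc, which both rose, among the exceptions. Inpp5d, the phosphatase used by Fcgr2b, had 218 and 212 TPM in PolyIC01 and PolyIC02, against 213 and 205 TPM in NT01 and NT02, and did not pass (0.04, adjusted p = 0.326). Ptpn6, which encodes the ITIM phosphatase SHP-1, had 360 and 362 TPM in PolyIC01 and PolyIC02, against 182 and 185 TPM in NT01 and NT02 (0.97, adjusted p = 3.49e-06). Dok1 rose (0.98) and Dok3 fell (-0.70), while the rise of Ptprj (0.84) was lost with curated transcripts only (0.15, adjusted p = 0.250).

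Among genes that Dectin-1 signalling is known to induce, several rose in cells that met poly(I:C) and, as far as the labels say, no fungal ligand. Of 13 listed 9 were tested, and 8 rose and 1 missed the threshold (median 1.28). Il10 and Il12b, 2 of the 8, were tested only through the poly(I:C) libraries and so could hardly be called in the other direction. Il1b had 107 and 103 TPM in PolyIC01 and PolyIC02, against 2.81 and 2.57 TPM in NT01 and NT02. Tnf (3.42), Il6 (2.02) and the transcription factor gene Egr2 (1.73) rose too. Cxcl2 did not pass (0.34), and Il23a, Cxcl1, Ptgs2 and Csf2 were too low to test. Whether Dectin-1 had a part in these changes was not tested.

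**Figure D4:**
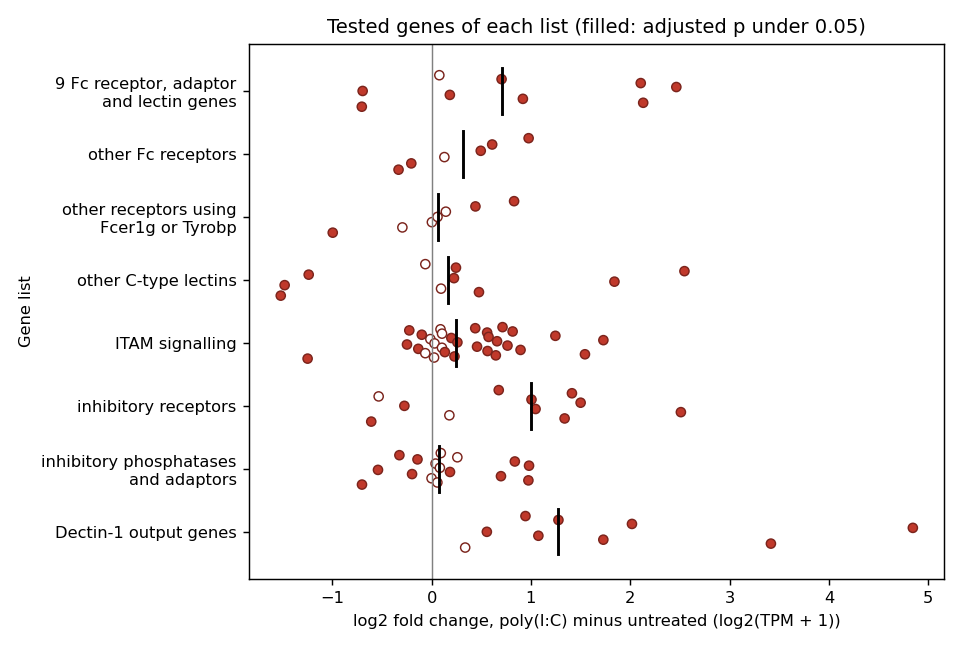
Log2 fold change (poly(I:C) minus untreated) of each tested gene by list; filled points passed an adjusted p of 0.05, open points did not, and black bars are medians. The 9 genes described here have a median of 0.70, inhibitory receptors one of 1.01 and other receptors using Fcer1g or Tyrobp (with the signalling chain gene Hcst among them) one of 0.06.

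The genes closest to Clec7a in level and change, by Euclidean distance of log2(TPM + 1) over the 4 libraries, were Rasgef1b (distance 0.114), Cybb (0.254), which encodes the superoxide-producing gp91phox protein of phagocytes, and Mov10 (0.528). Rasgef1b had 77.1 and 72.4 TPM in PolyIC01 and PolyIC02, against 12.04 and 12.4 TPM in NT01 and NT02. Such nearness over 4 libraries of 2 groups describes level and fold change alone.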

How the data were processed

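Per the labels' protocols, poly(A) RNA went into NEBNext Ultra II Directional libraries. Tools in the submitters' processing notes are kallisto 0.42.4 and bcl2fastq 2.20.0.422, and the build there is GRCm38. The table's name says FPKM, but the deposited values of every column used add up to 1000000, so they were read as TPM per RefSeq transcript; depth is unknown. Its 6 value columns share 5 headings, and the heading after NT01 is blank. The 4 columns whose group is the same under either reading of the header were used, and 2 columns were not used. The number of a library other than NT01 is not settled, so libraries are called by their headings.

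Of 107384 transcripts, 86722 (80.8%) were matched to RefSeq gene symbols (GRCm38.p6) by their accession, ignoring its version, and held 91.8% to 92.2% of each library's TPM; these were summed per gene. The 9 genes have 15 matched transcripts, 11 of them curated. Genes averaging 0.5 TPM or more were tested with limma 3.58.1 (trend, robust; R 4.3.3) on log2(TPM + 1), which understates changes of low genes, with 2 residual degrees of freedom. A gene rose or fell at a Benjamini-Hochberg adjusted p under 0.05 over 12520 genes. Folds of single genes are ratios of mean TPM. The fit was also run on simulated data with independent noise and far fewer changed genes than were called here. That run cannot show how calls hold if replicate libraries are technical. Shared words of 31 bases, exons and overlaps came from GENCODE M21 (GRCm38), promoters from RefSeq; Python 3.11.15 with numpy 2.4.6 and pandas 2.3.3 made the tables, and matplotlib 3.10.9 the plots.

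The 9 genes, the gene lists, the tests and the rule for naming genes were chosen with earlier results of these data known. The rule names the 9 genes, up to 4 passing genes per list with the largest change, Syk, Card9, Inpp5d, Ptpn6, B2m and Trim21, and the 3 genes nearest to the one of the 9 with the largest change on the log2(TPM + 1) scale; genes named beyond it were chosen after their values were seen.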

Additional observations from a re-analysis of the deposited data

How the results depend on the processing

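Of the 9 genes, 6 rose and 2 fell under each of 12 other settings: pseudocounts of 0.1 and 0.5, no filter or a mean of at least 1 TPM, limma without trend or robust moderation, centring on library medians, curated transcripts only, each library left out in turn, and the replicate block. Across these, the log2 fold change of Clec7a lay between 2.44 and 2.55, of Fcgr4 between 2.09 and 2.17, of Fcgr2b between -0.76 and -0.67 and of Fcgrt between -0.71 and -0.68, and that of Fcgr1 between 2.07 and 3.50, highest with a pseudocount of 0.1. The adjusted p of Fcgr3 reached 0.0200 and that of Tyrobp stayed between 0.111 and 0.452. With Fcgr2b and Fcgr3 summed, an alternative added after seeing the data, 6 features rose and 1 fell (Fcgrt), since the construction removes Fcgr2b as a gene of its own. Over all tested genes, leaving out a library gave 2722 to 3756 that rose and 3402 to 3951 that fell, beside 3556 and 4062. With the replicate number as headed used as a block, 3780 rose and 4277 fell, and the calls of the 9 genes were the same; the deviations of libraries with the same number correlated at 0.022 across genes, and the numbers are not settled by the header. TPM gives no depth, so what counting error adds to low genes such as Fcgr1 is unknown.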
